A study of Mus musculus with 6 samples.

Results

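The caveolins and cavins are the membrane and coat proteins of caveolae, and their probes were followed across 3 states of primary mouse osteoblasts. The members were chosen by name, as the 3 caveolin genes Cav1, Cav2 and Cav3 and the 4 cavin genes Cavin1 (Ptrf), Cavin2 (Sdpr), Cavin3 (Prkcdbp) and Cavin4 (Murc). These 7 genes had 9 named probes among 39429 non-control probes of the array. Of 20659 named genes on the array they are 7. A probe was tested where the scanner software called it well above background on 2 or more of the 6 arrays. By that rule 8 of the 9 probes were among the 27196 probes tested, and the ninth, a second Cavin1 probe, was well above background on 1 array.

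The osteoblasts came from the calvaria, the flat bones of the skull, of newborn CD1 mice aged 2 to 5 days. Undifferentiated osteoblasts were grown to confluence, differentiated osteoblasts were then kept for 30 days in differentiation medium, and cabozantinib-treated osteoblasts were kept for 30 days in the same medium with cabozantinib (XL184), an inhibitor of the receptor kinases MET and VEGFR2. Each state had 2 arrays. The labels do not say whether the replicates came from separate animals or cultures, so p-values measure the spread between these arrays, which may be technical. The cultures were not sorted, and in such bulk RNA fewer cells of a type and less RNA per cell cannot be told apart. The study asked which genes change with cabozantinib treatment of osteoblasts.

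Caveolae are flask-shaped pits of the plasma membrane that take up mechanical stretch, hold lipids and gather signaling receptors. Caveolin 1 is the core membrane protein of the pits outside striated muscle, caveolin 2 joins it in mixed oligomers, and caveolin 3 is the form of skeletal and heart muscle. Cavins coat the cytoplasmic face. Cavin 1 is required for the coat, cavin 2 helps to bend the membrane, cavin 3 takes part in caveola traffic, and cavin 4 is a muscle form. Caveolae are abundant in adipocytes, endothelial cells and muscle, and are also present in osteoblasts.

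Promoters of 6 of the 7 members were found in a RefSeq table of build GRCm38.p6, and 4 stretches are shown, each the 250 bases before a transcription start. Cav1 and Cav3 are shown because they were the members whose cabozantinib-treated and control differentiated arrays did not overlap, and Cav2 because it is the gene next to Cav1 and differed in pattern. Capitals mark the motifs searched on both strands, which were the GC box GGGCGG, the CCAAT box CCAAT, the TATA box TATAAA, a forkhead site TGTTTAC and the E-box CAGCTG that myogenic factors bind. These motifs do not overlap each other in the stretches shown.
Cav1, first start, chr6:17306085-17306334, plus strand: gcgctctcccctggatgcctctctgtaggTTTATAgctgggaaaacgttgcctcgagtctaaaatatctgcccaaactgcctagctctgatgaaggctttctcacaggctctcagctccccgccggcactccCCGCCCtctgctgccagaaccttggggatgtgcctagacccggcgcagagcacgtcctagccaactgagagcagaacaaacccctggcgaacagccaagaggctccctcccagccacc
Cav1, second start, chr6:17307390-17307639, plus strand: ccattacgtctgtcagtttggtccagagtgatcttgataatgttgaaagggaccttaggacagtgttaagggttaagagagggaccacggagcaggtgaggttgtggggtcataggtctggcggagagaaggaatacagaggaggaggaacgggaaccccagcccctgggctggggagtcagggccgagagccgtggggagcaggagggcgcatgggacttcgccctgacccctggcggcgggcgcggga
Cav2, chr6:17280935-17281184, plus strand: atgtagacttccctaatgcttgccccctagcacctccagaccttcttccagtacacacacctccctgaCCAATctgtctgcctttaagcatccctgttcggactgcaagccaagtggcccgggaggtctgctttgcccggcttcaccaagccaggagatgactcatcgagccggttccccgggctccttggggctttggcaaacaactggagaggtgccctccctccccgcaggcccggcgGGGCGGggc
Cav3, chr6:112459255-112459504, plus strand: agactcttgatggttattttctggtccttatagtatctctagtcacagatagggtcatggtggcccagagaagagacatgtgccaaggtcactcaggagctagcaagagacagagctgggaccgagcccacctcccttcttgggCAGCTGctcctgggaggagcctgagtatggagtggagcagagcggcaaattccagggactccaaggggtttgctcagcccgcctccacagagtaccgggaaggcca
The first Cav1 stretch held a GC box 118 bases before the start, read on the minus strand, and a TATA box 221 bases before it, also on the minus strand. In the Cav2 stretch a GC box lay 9 bases and a CCAAT box 182 bases before the start. The Cav3 stretch held the myogenic E-box, 106 bases before the start. No motif of the 5 searched was in the second Cav1 stretch. Over all 32851 promoters of the table, read over the same 250 bases, 32.7% held a GC box, 33.8% a CCAAT box, 12.4% a TATA box, 3.17% the forkhead site and 13.0% the E-box. The forkhead site was in none of the member stretches. Each match is a run of letters and was not tested for binding.

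Signals are given as log2 of the scanner's processed signal minus the 75th percentile of that array, so that 0 is the level of the array's 75th percentile and 1 unit is a 2-fold difference. A level on this scale was not set against that of another probe. The 75th percentile signals ranged from 624.6 to 1773 arbitrary units over the 6 arrays, from 58.8% to 72.9% of spots were well above background, and no spot was saturated. The 2 cabozantinib arrays lay on a slide of their own and the other 4 shared a slide, so cabozantinib treatment and slide cannot be told apart. Osteocalcin (Bglap2), a late osteoblast marker, was 5.06 ± 0.50 (SE) higher in differentiated than in undifferentiated osteoblasts on the log2 scale, with an adjusted p of 0.000486 by limma. All 10 osteoblast markers listed were tested and 6 were called in that comparison, against 10.7% of named genes. Of the 6 called, 5 were higher. Spp1, the bone matrix protein osteopontin, was the lower one of these and fell by 3.67 ± 0.91 (SE), with an adjusted p of 0.032 by limma and 0.0548 without the replicate block. Of all 10 markers 7 were higher, against 57.5% of named genes. The transcription factors Runx2 and Sp7 were lower too, at -1.92 ± 0.60 and -1.85 ± 0.56 (SE). Their adjusted p-values were 0.0777 and 0.0699 by limma, and they were well above background on 3 and 4 of the 6 arrays.

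A probe was called where its adjusted p by limma was under 0.05. With cabozantinib, set against control differentiated osteoblasts, 0 of the 8 tested probes were called, against 2.51% of all probes tested. In that comparison 7 of the 8 were higher with cabozantinib, with a median of 0.56 on the log2 scale, while the median of all probes was -0.27 and 33.0% of all probes were higher. Cav1 and Cav3 were the members over 2-fold higher, as were 5.8% of all probes. Cav1 met an unadjusted p under 0.05, which 23.3% of all probes did. For differentiated against undifferentiated osteoblasts 0 of the 8 were called, against 10% of all probes, and 0 had an unadjusted p under 0.05, against 21.2%. In the third comparison, cabozantinib-treated against undifferentiated osteoblasts, 0 were called, against 13.6% of all probes, and 0 had an unadjusted p under 0.05, against 32%. By the methods' criterion of more than 2-fold with an unadjusted p under 0.05, Cav1 alone, 1 of the 8, passed, in the first comparison. There 23.3% of all probes passed in either direction, and 2.97% passed as higher.

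**Figure D1:**
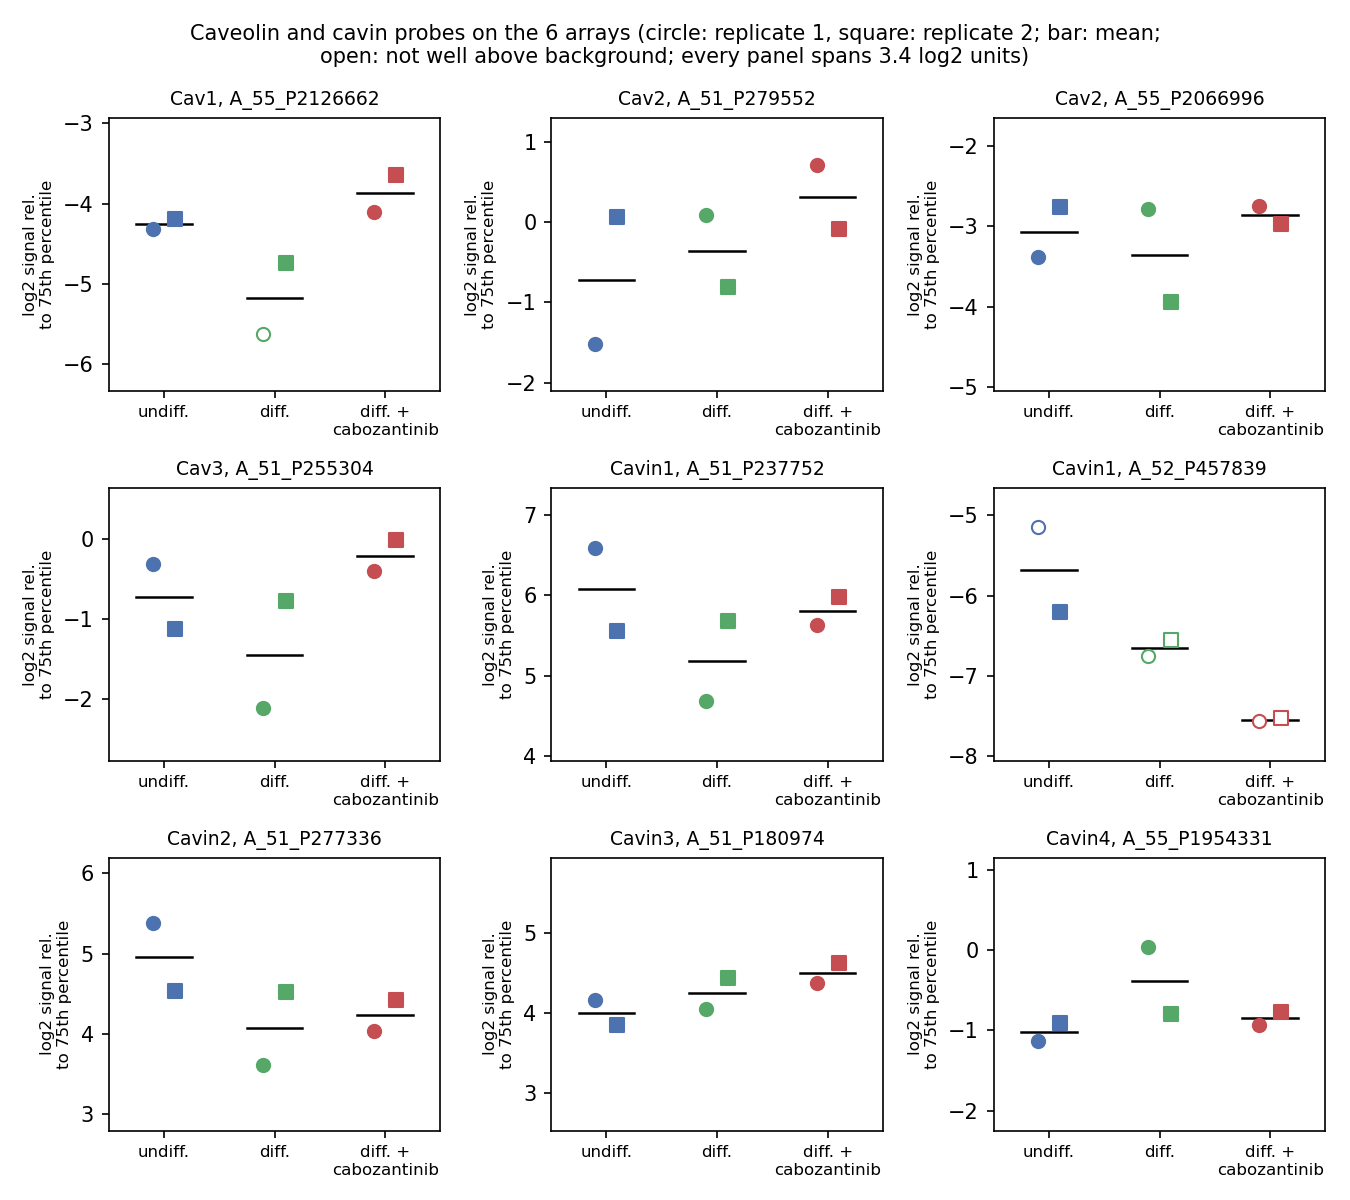
Signals of the 9 caveolin and cavin probes on each of the 6 arrays, as log2 relative to the array's 75th percentile, with the 2 arrays of each state as points and their mean as a bar. Both Cav1 points and both Cav3 points with cabozantinib lie above both points of control differentiated osteoblasts, and all but 1 point of the second Cavin1 probe are open, which marks a signal not well above background.

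Cav1, the core caveolin, was read by probe A_55_P2126662, the only probe named as Cav1. RefSeq names covered 69.1% of probes, so other Cav1 probes may have gone unnamed. The signal of A_55_P2126662 was -4.31 and -4.19 in undifferentiated osteoblasts, -5.62 and -4.74 in differentiated osteoblasts, and -4.10 and -3.64 with cabozantinib. Both cabozantinib-treated arrays were above all 4 others, and both differentiated arrays were below all 4 others. Cav1 was thus 1.31 ± 0.50 (SE) higher with cabozantinib than in control differentiated osteoblasts, or 2.47-fold, with a 95% interval of 0.20 to 2.42, an unadjusted p of 0.0255 and an adjusted p of 0.148 by limma. Fitted on the 4 arrays of this comparison, the adjusted p by limma was 0.0369, in a fit that called 6479 of the 27196 probes. By limma it was 0.0811 without the replicate block, 0.178 under quantile normalization, 0.226 with the authors' values and 0.9998 with normexp. The methods' paired test gave an adjusted p of 0.336. The probe was dim, with processed signals between 22.3 and 97.3 units after subtraction of the background, beside local backgrounds of 27.5 to 42 units, and differentiated replicate 1 was not well above background. The difference was 0.40 with a normexp background correction and 2.00 with quantile normalization, and the cause was not tested. Against undifferentiated osteoblasts the Cav1 difference was -0.93 ± 0.50 (SE) after differentiation, with an adjusted p of 0.348 by limma, and 0.38 ± 0.50 (SE) with cabozantinib, with an adjusted p of 0.662 by limma.

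Cav2, the partner of caveolin 1, had 2 probes. Probe A_51_P279552 was printed 10 times on each array and gave -1.52 and 0.06 in undifferentiated, 0.09 and -0.81 in differentiated, and 0.71 and -0.09 in cabozantinib-treated osteoblasts. Its arrays overlapped in every comparison. The spots of one array agreed closely, with an SD between 0.0136 and 0.138 on the log2 scale, whereas the 2 arrays of a state differed by 1.58, 0.90 and 0.80 in undifferentiated, differentiated and cabozantinib-treated osteoblasts. The spread that limits the Cav2 comparison was therefore between arrays and not between spots. The difference of cabozantinib-treated from control differentiated osteoblasts was 0.67 ± 0.66 (SE), with a 95% interval of -0.80 to 2.15 and an adjusted p of 0.667 by limma, and ran from 0.0252 without differentiated replicate 2 to 1.32 without differentiated replicate 1.

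**Figure D2:**
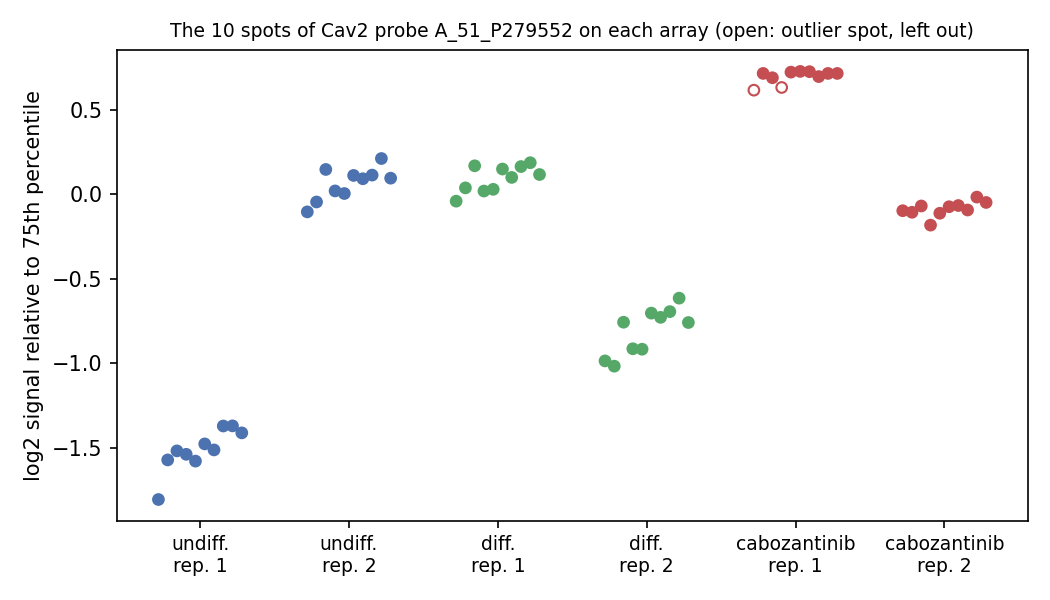
Signal of each of the 10 spots of Cav2 probe A_51_P279552 on the 6 arrays, as log2 relative to the array's 75th percentile, with 2 outlier spots of cabozantinib replicate 1 drawn open. Spots of one array lie close together, with an SD of at most 0.138, and the arrays of one state lie apart by 0.80 to 1.58.

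The second Cav2 probe, A_55_P2066996, gave -3.38 and -2.75 in undifferentiated, -2.78 and -3.94 in differentiated, and -2.75 and -2.97 in cabozantinib-treated osteoblasts. It too overlapped between the states. Its difference between cabozantinib-treated and control differentiated osteoblasts was 0.50 ± 0.56 (SE), with an adjusted p of 0.724 by limma. The 2 probes had the same sign there but not between differentiated and undifferentiated osteoblasts, where they gave 0.37 ± 0.66 and -0.29 ± 0.56 (SE), with adjusted p-values of 0.901 and 0.910 by limma. Against undifferentiated osteoblasts the cabozantinib values were 1.04 ± 0.66 (SE) for the first probe and 0.21 ± 0.56 (SE) for the second, with adjusted p-values of 0.316 and 0.853 by limma. The first of these depended on the undifferentiated arrays. With the replicate block kept, it was -0.18 without undifferentiated replicate 1 and 2.25 without undifferentiated replicate 2. The negative sign came from the block, since the cabozantinib mean of 0.31 lay above undifferentiated replicate 2 at 0.06. Over the 6 arrays the 2 Cav2 probes had a Pearson r of 0.74, given as a description.

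Cav3, the muscle caveolin, was well above background on all 6 arrays of these osteoblast cultures. Probe A_51_P255304 gave -0.32 and -1.13 in undifferentiated, -2.11 and -0.78 in differentiated, and -0.41 and -0.02 in cabozantinib-treated osteoblasts. Both cabozantinib arrays were above both differentiated arrays, the undifferentiated arrays overlapped with each of the other states, and differentiated replicate 1 was the lowest. Cav3 was 1.23 ± 0.59 (SE) higher with cabozantinib than in control differentiated osteoblasts, or 2.35-fold, with a 95% interval of -0.09 to 2.55 and an adjusted p of 0.251 by limma. Without differentiated replicate 1 this difference was 0.46. It moved little with the background step and the scaling, being 1.24 with normexp and 1.25 with quantile normalization. Between differentiated and undifferentiated osteoblasts the value was -0.72 ± 0.59 (SE), with an adjusted p of 0.623 by limma, and between cabozantinib-treated and undifferentiated osteoblasts 0.51 ± 0.59 (SE), with an adjusted p of 0.616 by limma.

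Of 10 skeletal muscle markers, listed because Cav3 and Cavin4 are muscle forms, 7 were tested, and desmin (Des) and Actn2 were well above background on no array. The summed linear signal of all 10 muscle markers, in units of the array's 75th percentile, was 4.81 and 4.51 in undifferentiated, 1.16 and 1.49 in differentiated, and 3.23 and 2.61 in cabozantinib-treated osteoblasts. The sum was carried largely by Acta1, the skeletal muscle actin, with means of 2.07, -0.51 and 1.36 on the log2 scale in the same order. Between cabozantinib-treated and control differentiated osteoblasts 1 of the 7 tested muscle markers, Acta1, was higher, against 36.1% of named genes. The median over the 7 was -1.02, and under quantile normalization 2 were higher, with a median of -0.18. Of the 7, 1 was called, against 2.07% of named genes. This was Mylpf, at -2.76 ± 0.49 (SE), with an adjusted p of 0.0477 by limma. It was well above background on 4 of the 6 arrays. With an unadjusted p under 0.05 by limma and over 2-fold, 4 of the 7 passed, against 23.3% of all probes tested. Acta1 was higher there, and Mylpf, Myod1 and Myog were lower. Acta1 fell by 2.58 ± 0.49 (SE) with differentiation, with an adjusted p of 0.00955 by limma, and differed by 1.87 ± 0.49 (SE) between cabozantinib-treated and control differentiated osteoblasts, with an adjusted p of 0.0647 by limma. The part of muscle cells in the Cav3 values was not tested.

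Cavin1, the coat protein on which caveolae depend, was read by the bright probe A_51_P237752 and the dim probe A_52_P457839. The bright probe gave 6.60 and 5.56 in undifferentiated, 4.69 and 5.68 in differentiated, and 5.64 and 5.98 in cabozantinib-treated osteoblasts. The states overlapped, although differentiated replicate 1 was the lowest of the 6 arrays. The difference was 0.62 ± 0.59 (SE) between cabozantinib-treated and control differentiated osteoblasts, with an adjusted p of 0.644 by limma, and -0.89 ± 0.59 (SE) between differentiated and undifferentiated osteoblasts, with an adjusted p of 0.483 by limma. The latter ran from -1.75 without undifferentiated replicate 2 to -0.0353 without undifferentiated replicate 1. Between cabozantinib-treated and undifferentiated osteoblasts it was -0.27 ± 0.59 (SE), with an adjusted p of 0.813 by limma.

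The dim Cavin1 probe was well above background on undifferentiated replicate 2 alone, with -5.15 and -6.21 in undifferentiated, -6.75 and -6.55 in differentiated, and -7.57 and -7.52 in cabozantinib-treated osteoblasts. No fold was taken in any comparison, since 5 of the 6 arrays give only a bound.

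Cavin2, which helps to curve the membrane, gave 5.38 and 4.54 in undifferentiated, 3.61 and 4.53 in differentiated, and 4.04 and 4.42 in cabozantinib-treated osteoblasts at probe A_51_P277336. Both undifferentiated arrays lay above the other 4, though undifferentiated replicate 2 and differentiated replicate 2 were nearly equal. The Cavin2 difference was -0.89 ± 0.56 (SE) after differentiation, with a 95% interval of -2.15 to 0.36 and an adjusted p of 0.455 by limma, and ran from -1.64 without undifferentiated replicate 2 to -0.15 without undifferentiated replicate 1. With cabozantinib it was -0.73 ± 0.56 (SE) against undifferentiated and 0.16 ± 0.56 (SE) against control differentiated osteoblasts, with adjusted p-values of 0.416 and 0.945 by limma. With the replicate block kept, the difference from undifferentiated osteoblasts with cabozantinib was -1.48 without undifferentiated replicate 2 and 0.02 without undifferentiated replicate 1. The sign of the latter came from the block, since undifferentiated replicate 2 itself lay above both cabozantinib arrays.

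Cavin3, which takes part in caveola traffic, had the narrowest range of the tested probes. Probe A_51_P180974 gave 4.15 and 3.85 in undifferentiated, 4.05 and 4.44 in differentiated, and 4.37 and 4.62 in cabozantinib-treated osteoblasts. The means were ordered as the states are given here, yet each neighboring pair of states overlapped, and the cabozantinib arrays were both above the undifferentiated ones. The steps were 0.24 ± 0.49 (SE) for differentiation and 0.25 ± 0.49 (SE) for cabozantinib, with adjusted p-values of 0.919 and 0.882 by limma. The difference of cabozantinib-treated from undifferentiated osteoblasts was 0.50 ± 0.49 (SE), with an adjusted p of 0.548 by limma.

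Cavin4, the muscle cavin, gave -1.13 and -0.90 in undifferentiated, 0.04 and -0.80 in differentiated, and -0.93 and -0.77 in cabozantinib-treated osteoblasts at probe A_55_P1954331. Differentiated replicate 1 stood above the other 5 arrays, which lay between -1.13 and -0.77. Cavin4 was the tested member with a lower mean in cabozantinib-treated than in control differentiated osteoblasts, at -0.47 ± 0.52 (SE) and an adjusted p of 0.72 by limma. Without differentiated replicate 1 and with the replicate block kept, that difference was 0.05. Its sign came from the block, since differentiated replicate 2 at -0.80 lay above the cabozantinib mean of -0.85. After differentiation Cavin4 was 0.64 ± 0.52 (SE) higher, with an adjusted p of 0.616 by limma. With cabozantinib it was 0.17 ± 0.52 (SE) above undifferentiated osteoblasts, with an adjusted p of 0.870 by limma. The array highest for Cavin4, differentiated replicate 1, was the lowest for Cav3, the other muscle form.

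**Figure D3:**
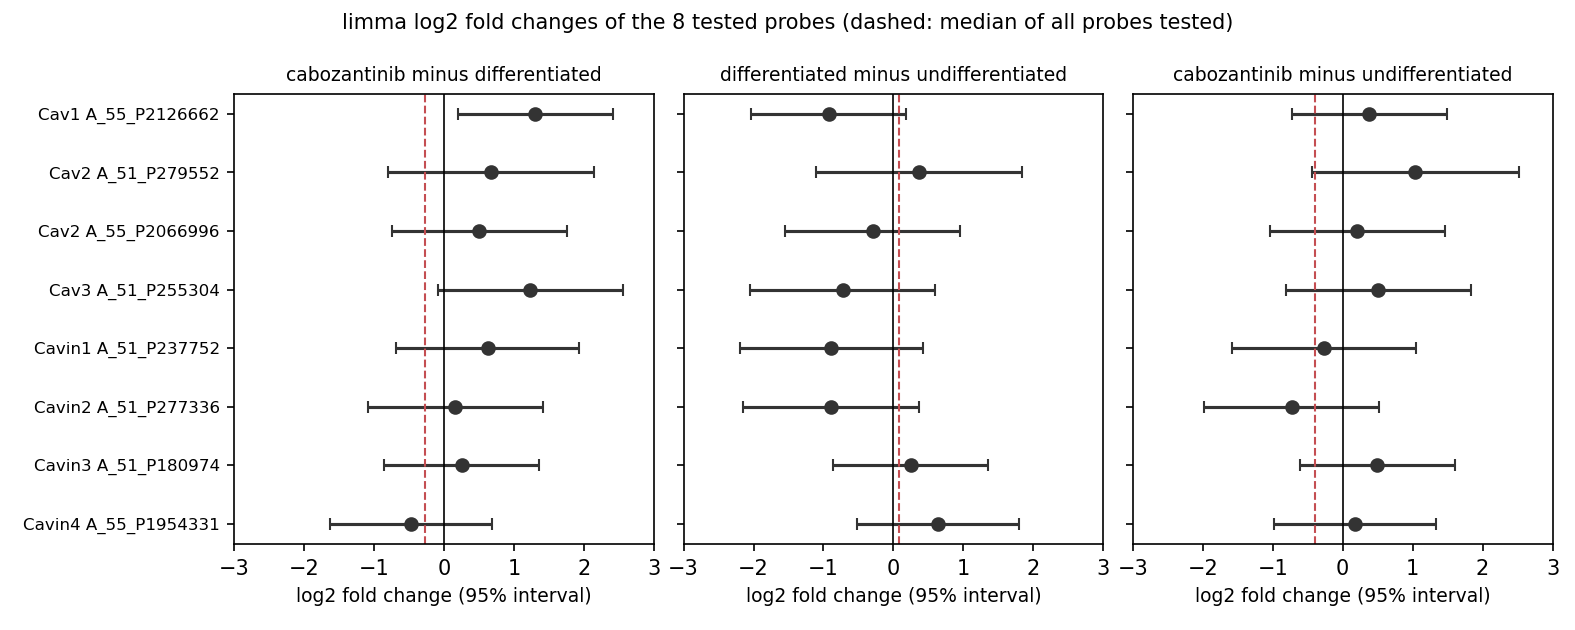
Log2 fold changes of the 8 tested probes by limma, with 95% intervals, in the 3 comparisons. The dashed line is the median of all 27196 probes tested, at -0.27, 0.08 and -0.40. The interval of Cav1 in the first panel lies above 0, and the other intervals include 0.

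The caveolins and cavins can also be read by how their groups separated. Between cabozantinib-treated and control differentiated osteoblasts, 2 of the 8 tested probes, Cav1 and Cav3, had both treated arrays higher, against 14% of all probes, and none had both lower, against 43.6%. After differentiation, Cavin4 had both arrays higher and Cav1 and Cavin2 both lower than undifferentiated osteoblasts, against 24.9% and 21.4% of all probes. Between cabozantinib-treated and undifferentiated osteoblasts, Cav1 and Cavin3 did not overlap and were higher, against 19.1% of all probes, and Cavin2 was lower, against 44.7%. The median of the 8 was -0.51 after differentiation, with 3 higher, and 0.29 for cabozantinib-treated against undifferentiated osteoblasts, with 6 higher, where all probes had medians of 0.08 and -0.40. The comparisons share arrays and are not independent of each other.

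The scaling matters for these medians, since the median of all probes with cabozantinib moved from -0.27 to -0.06 under quantile normalization. Relative to the median probe, the member median in cabozantinib-treated against control differentiated osteoblasts was 0.84, and under quantile normalization the member median was 0.74 with 7 of 8 higher. Cav1 stood 1.58 and Cav3 1.51 above the median probe. Cavin4 stood at -0.19 and the other tested probes at 0.44 to 0.95 relative to it.

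**Figure D4:**
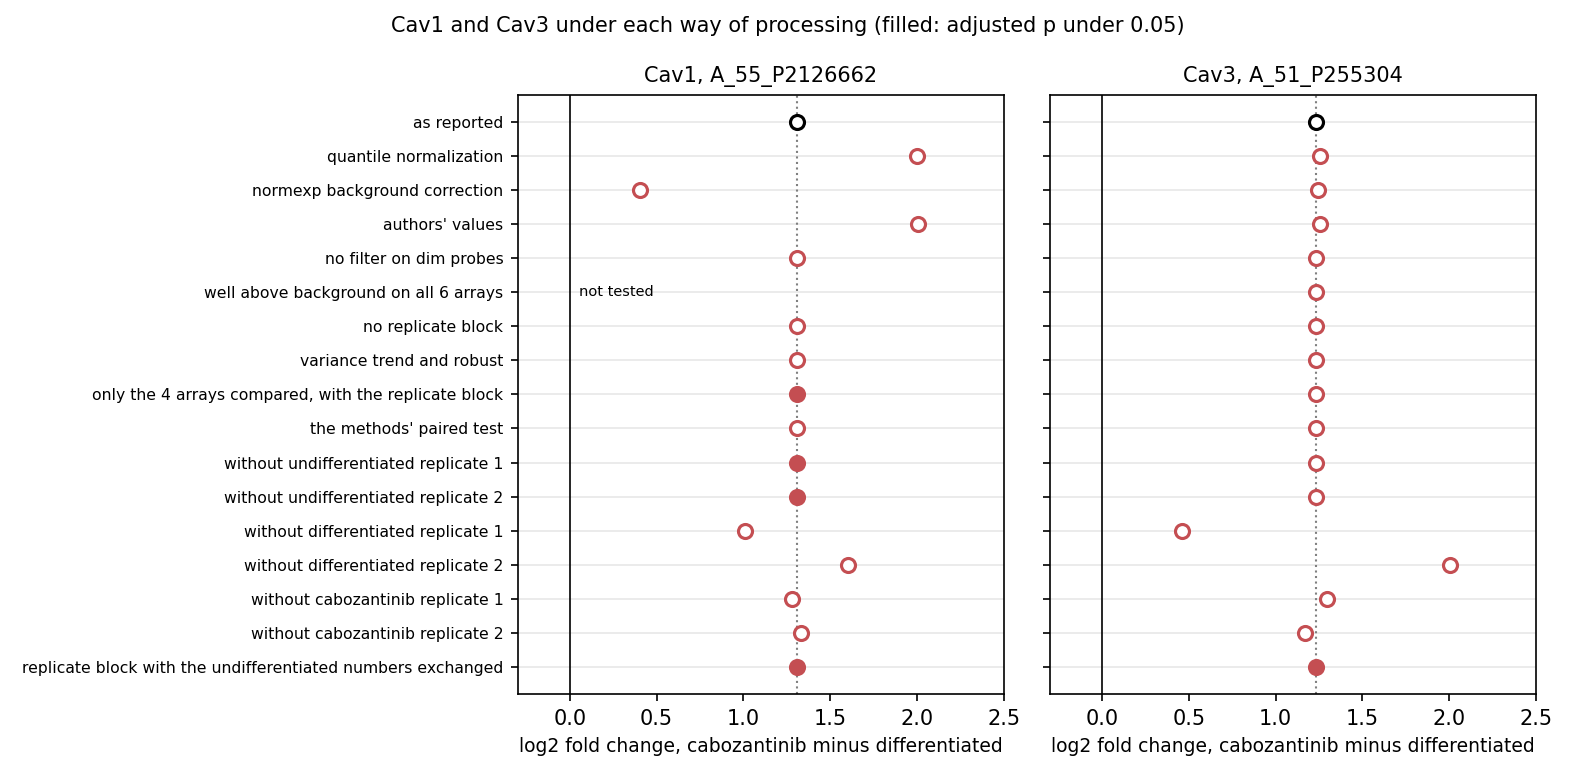
Log2 fold change of Cav1 and Cav3, cabozantinib-treated minus control differentiated osteoblasts, under each way of processing, with filled points for an adjusted p under 0.05. Every value lies above 0. Cav1 ran from 0.40 with normexp to 2.00 with the authors' values, and Cav3 from 0.46 without differentiated replicate 1 to 2.00 without differentiated replicate 2.

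Cavin1 and Cavin2 were the closest pair of different members over the 6 arrays, with a root mean square distance of 0.23 on the log2 scale after centering and a Pearson r of 0.92. Cav1 and Cav3 came next, with a distance of 0.31 and r of 0.89. Cavin4 ran against Cavin1, with r of -0.88. Each is a description over 6 arrays that share their scaling. Among 14671 other named genes that passed background on 4 or more arrays, each at its brightest probe, the genes nearest in pattern were Csdc2, Rai2 and Fhod1 for Cav1, at distances of 0.13 to 0.20, and Gpr20, Rtn2 and Tfeb for Cav3, at 0.15 to 0.22. Cav2 was nearest to Pcdhb14, Chpt1 and AI467606 at 0.13 to 0.18. Cul7, Mxd4 and Phldb1 lay nearest to Cavin1 at 0.09 to 0.11, and Umps, Rap1gap and H2ac10 to Cavin2 at 0.05 to 0.07. For Cavin3 the nearest were Ivd, Shisa4 and C1qtnf12 at 0.04, and for Cavin4 Pcdhb3, Irx1 and Fbxl21 at 0.10 to 0.11. Within a distance of 0.2 there were 2 genes for Cav1, 7 for Cav2 and 1 for Cav3, and 60, 167, 394 and 84 for Cavin1 to Cavin4. Values were centered but not scaled, so these counts also depend on how far a probe moved. Cavin3, with 394, had the narrowest range of the tested probes.

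Proteins that work with the caveolar coat or with the related flotillin rafts were listed as 12 genes, among them the EHD ATPases that sit at the neck of the pit, the membrane-bending pacsins, dynamin 2, filamin A, the flotillins and stomatin. Each of the 12 passed background on all 6 arrays, and 0 were called in the 3 comparisons by limma, against 2.07%, 10.7% and 12.6% of named genes for cabozantinib-treated against control differentiated, differentiated against undifferentiated and cabozantinib-treated against undifferentiated osteoblasts. At an unadjusted p under 0.05 and over 2-fold, the counts were 0, 2 and 1 of the 12, against 23.3%, 21.2% and 32% of all probes tested. In the first of these comparisons, 10 of 12 were higher, against 36.1% of named genes, with a median of 0.15. The highest were Flot1, a flotillin, at 0.94 ± 0.48 (SE) and Stom at 0.75 ± 0.53 (SE), and the lowest Pacsin2 at -0.43 ± 0.53 (SE) and Flot2 at -0.09 ± 0.64 (SE). After differentiation 3 of 12 were higher, against 57.5% of named genes, with a median of -0.11, and the values ran from -1.36 ± 0.48 (SE) for Flot1 and -0.94 ± 0.65 (SE) for Ehd2, the EHD protein of caveolae, to 0.84 ± 0.53 (SE) for Pacsin2 and 1.60 ± 0.54 (SE) for Ehd4. Adjusted p-values by limma were 0.123 for Flot1 and 0.105 for Ehd4 there, and without the replicate block 0.035 and 0.0493. For cabozantinib-treated against undifferentiated osteoblasts the median was 0.17, with 8 of 12 higher, against 41.4% of named genes. Ehd4 was again the highest, at 1.63 ± 0.54 (SE), with an adjusted p of 0.0718 by limma and 0.0335 without the replicate block, followed by Pacsin2 at 0.41 ± 0.53 (SE), and Ehd2 at -0.82 ± 0.65 (SE) and Ehd1 at -0.68 ± 0.60 (SE) were the lowest.

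Kinases that phosphorylate caveolin 1 and signaling proteins that bind it made up another list of 12 genes, of which 10 were tested. Src was well above background on no array and Yes1 on 1. None of the 10 was called between cabozantinib-treated and control differentiated osteoblasts, against 2.07% of named genes. There 6 were higher, against 36.1% of named genes. Itga5 alone, 1 of the 10, was over 2-fold with an unadjusted p under 0.05, against 23.3% of all probes tested. After differentiation 2 were called, against 10.7% of named genes, which was 1 in each direction. Tgfbr1, the type I receptor of TGF-beta, rose by 2.34 ± 0.49 (SE), with an adjusted p of 0.0149 by limma. Itga5, the alpha subunit of the fibronectin receptor, fell by 3.32 ± 0.48 (SE), with an adjusted p of 0.00274 by limma. For cabozantinib-treated against undifferentiated osteoblasts 3 were called by limma, against 12.6% of named genes. Egfr, the EGF receptor, rose by 2.04 ± 0.54 (SE) with an adjusted p of 0.0362, Tgfbr1 rose by 1.87 ± 0.49 (SE) with an adjusted p of 0.0359, and Itga5 fell by 1.76 ± 0.48 (SE) with an adjusted p of 0.0407, or 0.0639 when fitted on only the 4 arrays compared. With cabozantinib Itga5 was 1.55 ± 0.48 (SE) above control differentiated osteoblasts, with an adjusted p of 0.0915 by limma and 0.03 without the replicate block.

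Other cells were looked for by their markers, namely adipocytes, endothelial cells and smooth muscle, which are rich in caveolae, and also macrophages. Of 8 adipocyte markers 7 were tested, with Lep well above background on no array, and the summed linear signal of the 8 was 5.27 and 6.11 in undifferentiated, 65.6 and 91.1 in differentiated, and 56.6 and 56.4 in cabozantinib-treated osteoblasts. The endothelial markers, of which 5 of 8 were tested and Tek and Tie1 were well above background on no array, summed to 1.44 and 0.89, 1.15 and 1.54, and 0.76 and 0.90 in the same order. Smooth muscle and myofibroblast markers, with 5 of 6 tested and Myh11 well above background on no array, summed to 429.6 and 211.0, 190.5 and 345.9, and 342.8 and 412.0. Macrophage markers, with 7 of 8 on the array and tested, summed to 44.1 and 22.7, 196.6 and 297.3, and 174.4 and 217.3. Thus adipocyte and macrophage sums were higher in both differentiated states, smooth muscle sums overlapped between the states, and the endothelial sums were lower in cabozantinib-treated than in control differentiated osteoblasts. The endothelial sum was carried largely by Kdr, the gene of VEGFR2, a target of cabozantinib that the paper found expressed in osteoblasts. Kdr had means of -0.22, -0.14 and -0.88 on the log2 scale in the same order. Its difference between cabozantinib-treated and control differentiated osteoblasts was -0.73 ± 0.53 (SE), with an adjusted p of 0.492 by limma. Linear sums weigh the brightest genes most, and single markers were mixed. After differentiation 5 of 7 tested adipocyte and 6 of 7 tested macrophage markers were higher, against 57.5% of named genes. Of the 5 tested endothelial markers 1, Pecam1, was higher in cabozantinib-treated than in control differentiated osteoblasts, against 36.1% of named genes. In that comparison 1 of the 5 was called, against 2.07% of named genes. This was Cdh5, at -2.40 ± 0.50 (SE), with an adjusted p of 0.0477 by limma. Cdh5 and Cldn5, 2 of the 5, were over 2-fold lower with an unadjusted p under 0.05 by limma. Of all probes tested, 23.3% passed that criterion in either direction. The part of these cells in the caveolin and cavin values was not tested.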

How the data were processed

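RNA of 6 samples was labeled with Cy3 and hybridized to 1-color Agilent arrays. Per the file headers, the deposited intensity of a spot was the processed signal of Feature Extraction 11.0.1.1, background-subtracted and detrended by the scanner software, on a linear scale that was not set equal between arrays. The authors also deposited log2 values of 30439 probes, whose scale was nearly equal between arrays (medians of 7.50 to 7.51) and followed the scanner signals (r of at least 0.998). How those were made is not given in the sources used here.

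Control spots and outlier spots were removed, repeat spots were averaged on the log2 scale, and values were set relative to the array's 75th percentile. RefSeq accessions named 69.1% of probes, and 77 probes without a value on every array were left out. Limma 3.58.1 in R 4.3.3 fitted the 6 arrays with condition and replicate number as terms, the latter because the methods name a paired test, with 2 residual and 7.67 prior degrees of freedom. Adjustment was by Benjamini-Hochberg over 27196 probes, and fold changes are limma estimates. The data.table package (version 1.17.8), Python 3.11.15, pandas 2.3.3 and matplotlib 3.10.9 were used, and the fit was tested on simulated data.

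The members and the gene lists were chosen with earlier results of these data known. Every member probe is named, as is each gene of the 2 partner lists called in a comparison, at its brightest probe, and otherwise the 2 highest and 2 lowest of a list among those above background on all arrays. Marker lists are given by counts and sums, and the markers named with values were chosen after their values were seen. The genes nearest in pattern are the 3 with the smallest root mean square distance between centered log2 values. Alternatives were quantile normalization, normexp with an offset of 50 on the median signal and local background, the authors' values, other filters, no replicate block, a variance trend with robust settings, only the 4 arrays compared, the methods' paired test, a 2-fold criterion and each array left out. Fits with an array left out kept the replicate block. The number of arrays limits the precision.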

Additional observations from a re-analysis of the deposited data

How the results depend on the processing

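The data did not show that replicate numbers pair the samples, and whether they do was not tested further. Deviations of same-numbered arrays had r of -0.51 between undifferentiated and differentiated, -0.53 between undifferentiated and cabozantinib-treated and 0.26 between differentiated and cabozantinib-treated osteoblasts. Without the replicate block, 0 of 8 member probes were called in each comparison, while calls over all probes moved from 682, 2728 and 3700 to 3413, 3782 and 6644 for cabozantinib-treated against differentiated, differentiated against undifferentiated and cabozantinib-treated against undifferentiated osteoblasts. With the undifferentiated numbers exchanged, a block chosen after seeing the data, 2, 1 and 1 member probes and 8278, 7358 and 12299 of all probes were called.

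For cabozantinib-treated against differentiated osteoblasts, 1 member probe (Cav1) was called with only the 4 arrays compared, when 6479 of all probes were called, and 1 by the 2-fold criterion. There, all-probe calls were 0 under quantile normalization, the authors' values, no filter and the paired test, 1 under normexp and 2 for probes above background on all 6 arrays, which left Cav1 out. For differentiated against undifferentiated osteoblasts the all-probe count was 973 under normexp, 1747 with the authors' values, 1741 without a filter and 0 by the paired test. For the third comparison it was 1515 under quantile normalization, 640 under normexp, 1171 with the authors' values, 1393 without a filter, 1551 for probes above background on all 6 arrays and 0 by the paired test.

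Leaving out each array in turn left 1 array in a state, so log2 differences are given here and calls are not. Every such fit kept the replicate block, which adjusted the lone array by the replicate gaps of the other states. Some sign changes came from that adjustment. Among them were Cavin1 and Cavin4 for cabozantinib-treated against differentiated osteoblasts. So were Cavin2 and the first Cav2 probe for cabozantinib-treated against undifferentiated osteoblasts. Log2 differences that changed sign ranged, for cabozantinib-treated against differentiated osteoblasts, from -0.0484 to 1.30 for Cavin1, -0.41 to 0.74 for Cavin2, -0.98 to 0.0475 for Cavin4 and -0.18 to 1.18 for the second Cav2 probe. For differentiated against undifferentiated they ranged from -0.0698 to 0.56 for Cavin3, -1.55 to 0.11 for Cav3, and -0.85 to 1.58 and -0.98 to 0.39 for the first and second Cav2 probes. For cabozantinib-treated against undifferentiated they ranged from -1.12 to 0.59 for Cavin1, -0.32 to 1.34 for Cav3, -1.48 to 0.0158 for Cavin2, -0.18 to 2.25 and -0.45 to 0.87 for the first and second Cav2 probes and -0.11 to 0.45 for Cavin4. Normexp turned Cav1 to -0.17 and the second Cav2 probe to -0.20 in that comparison. Of 381 values of single probes under alternatives, 351 kept their direction and side of the threshold, 9 passed the threshold and 21 changed sign, and the cause was not tested. A slide block was not run, since each comparison lay either within a slide or wholly between slides.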
